A study of Mus musculus with 25 samples.

Results

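Tumours that the pathology label calls Intermediate were set against adenocarcinomas in mouse mammary tumours with a Trp53 deletion. Members were chosen by 2 labels, genotype (MMTV-Met;Trp53fl/+ or Trp53fl/+) and pathology (Intermediate, Adenocarcinoma or Poorly Differentiated Adenocarcinoma). They were 9 of the 25 samples of the series: 3 intermediate tumours and 6 adenocarcinomas, of which 3 were labelled poorly differentiated. All 9 were snap-frozen mammary tumours of FVB females, each with 1 floxed Trp53 allele and Cre. The mice labelled MMTV-Met;Trp53fl/+ (here MetTrp53) also carried a Met transgene under the mouse mammary tumour virus promoter. The mice labelled Trp53fl/+ (here Trp53) did not. The driver of Cre, the ages of the mice and the state of the other Trp53 allele in the tumours are not given in the sources used here.

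Intermediate 1 was a Trp53 tumour of a nulliparous mouse, intermediate 2 a MetTrp53 tumour of a nulliparous mouse and intermediate 3 a Trp53 tumour of a multiparous mouse. Adenocarcinoma 1 was a MetTrp53 tumour of a multiparous mouse, and adenocarcinomas 2 and 4 were Trp53 tumours with no stated parity. The poorly differentiated tumours were adenocarcinoma 3 (Trp53, nulliparous), adenocarcinoma 5 (MetTrp53, multiparous) and adenocarcinoma 6 (MetTrp53, nulliparous). Numbers follow the order of deposit and only name a tumour. A further 6 tumours of the same genotypes, with the pathology label Spindloid, entered the same fit and serve as a second reference. Whether each tumour came from a mouse of its own is not stated. Adenocarcinomas 2 and 3 share a number in their titles, as do adenocarcinoma 4 and spindloid 6, so the p-values reflect only how these samples spread and not, with certainty, how separate mice do.

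MicroRNAs (miRNAs) are short RNAs that lower the stability and translation of messenger RNAs, which they recognise mainly through the seed, bases 2 to 8 of the miRNA. The miR-200 family holds the epithelial state by repressing Zeb1 and Zeb2, transcription factors that in turn repress the miR-200 genes and E-cadherin. The miR-183 cluster and miR-205 are also typical of epithelia, whereas miR-199a, miR-199b and miR-214 are abundant in fibroblasts and other mesenchymal cells. Mammary tumours can lie between a glandular, epithelial form and a spindle-cell form, which makes these miRNAs a readout of where a tumour stands.

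Mature sequences from RefSeq (GRCm38.p6) were matched by name to 203 of the 254 miRNAs tested and to 22 of the 24 named here. The epithelial miRNAs are shown first because they carry the largest differences. They run 5′ to 3′ with the seed in capitals, and the 5 members of the miR-200 family have 2 seeds between them.
miR-200b-3p: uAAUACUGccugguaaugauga
miR-200c-3p: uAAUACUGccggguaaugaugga
miR-429-3p: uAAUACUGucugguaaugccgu
miR-200a-3p: uAACACUGucugguaacgaugu
miR-141-3p: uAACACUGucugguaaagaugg
miR-183-5p: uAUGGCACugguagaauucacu
miR-96-5p: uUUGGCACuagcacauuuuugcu
miR-182-5p: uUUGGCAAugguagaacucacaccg
miR-205-5p: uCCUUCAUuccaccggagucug

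On GRCm38.p6 the family lies at 2 places, both on the minus strand. miR-200b, miR-200a and miR-429 lie within 1791 bases at chr4:156053916-156055706, in the span of the long non-coding RNA Gm13648. miR-200c and miR-141 lie within 430 bases at chr6:124717917-124718346, with no gene span over them in the table used. The miR-183 cluster lies within 3771 bases at chr6:30165962-30169732, in the span of the long non-coding RNA Mirc35hg. miR-205-5p lies at chr1:193507503-193507524, in the span of Mir205hg. Whether a position is exonic or intronic was not analysed here.

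The next set holds the other miRNAs that the results turn on, again with the seed in capitals. miR-30a-5p is followed by 2 relatives with its seed, and miR-148a-3p by 2 with its seed, because relatives had smaller differences than the named member. miR-221 and miR-222 share a seed, and the arms of miR-199a and miR-214 do not.
miR-30a-5p: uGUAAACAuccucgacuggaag
miR-30e-5p: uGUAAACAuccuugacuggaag
miR-30c-5p: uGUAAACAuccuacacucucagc
miR-148a-3p: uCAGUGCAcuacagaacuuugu
miR-148b-3p: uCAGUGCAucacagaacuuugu
miR-152-3p: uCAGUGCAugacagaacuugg
miR-199a-5p: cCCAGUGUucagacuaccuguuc
miR-199a-3p: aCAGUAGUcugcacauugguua
miR-214-3p: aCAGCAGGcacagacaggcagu
miR-221-3p: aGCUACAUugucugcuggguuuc
miR-222-3p: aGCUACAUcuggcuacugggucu
miR-31-3p: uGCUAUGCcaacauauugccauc

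miR-30a-5p lies at chr1:23272274-23272295 on the plus strand, outside any gene span in the table. miR-199a has a copy at chr1:162217844-162217866, in the span of Dnm3 and of the antisense transcript Dnm3os, and a copy at chr9:21496537-21496559 in the span of Dnm2 (coordinates of the 5p arm). miR-214-3p lies near the first copy, at chr1:162223438-162223459. miR-221 and miR-222 lie within 617 bases at chrX:19146307-19146923. Because miR-199a is read from identical mature sequences, the array cannot tell its copies apart.

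A level is the log2 of an array intensity after scaling of each array, and the floor, which stands for a signal too low to read, is 3.61. Array quality was compared between the groups, though 3 against 6 arrays cannot show that they are alike. The arrays detected 203 to 264 miRNAs in intermediate tumours and 205 to 270 in adenocarcinomas (exact permutation test, two-sided p = 0.929). The scaling percentile was 505.1 to 571.4 intensity units in intermediate tumours and 363.8 to 622.5 in adenocarcinomas (exact permutation test, two-sided p = 0.345; 84 splits, smallest possible p 0.0119). It was 363.8, 421.3 and 398.3 in adenocarcinomas 1, 2 and 4. In the poorly differentiated numbers 3, 5 and 6 it was higher, at 622.5, 498.3 and 507.2. Across the miRNAs tested, intermediate tumours correlated with each other at 0.941 to 0.963 and adenocarcinomas at 0.804 to 0.934. An intermediate tumour and an adenocarcinoma correlated at 0.786 to 0.954, and an intermediate and a spindloid tumour at 0.9 to 0.965.

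In these tumours the 3 miR-200 members on chromosome 4 and the miR-183 cluster were higher in 5 of the 6 adenocarcinomas than in any intermediate tumour. miR-141-3p and miR-205-5p were so in 4 of 6. By contrast, the miR-199 and miR-214 group and miR-221 and miR-222 had higher means in the intermediate tumours. No miRNA passed the test when all 6 adenocarcinomas were compared. Of 254 miRNAs, 0 (0 percent) had an adjusted p under 0.05 (limma with Benjamini-Hochberg adjustment; the smallest adjusted p was 0.129). At an unadjusted p under 0.05 there were 26 (10.2 percent), 10 higher (3.94 percent) and 16 lower (6.3 percent) in intermediate tumours. Without adenocarcinoma 4, whose miR-200 and miR-183 cluster members were as low as in the intermediate tumours, 8 miRNAs (3.15 percent) passed, all lower in intermediate tumours. They were miR-429-3p, miR-183-5p, miR-200b-3p, miR-182-5p, miR-200a-3p, miR-96-5p, miR-30a-5p and miR-200c-3p. All but miR-30a-5p are miRNAs that were low in adenocarcinoma 4. Their passing follows in large part from leaving that tumour out and is not separate support. The median difference over all 254 miRNAs was -0.13 on the log2 scale, and 161 of them (63.4 percent) had a value below 0. At least 2-fold lower in intermediate tumours were 14 (5.51 percent), and at least 2-fold higher 8 (3.15 percent).

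**Figure D1:**
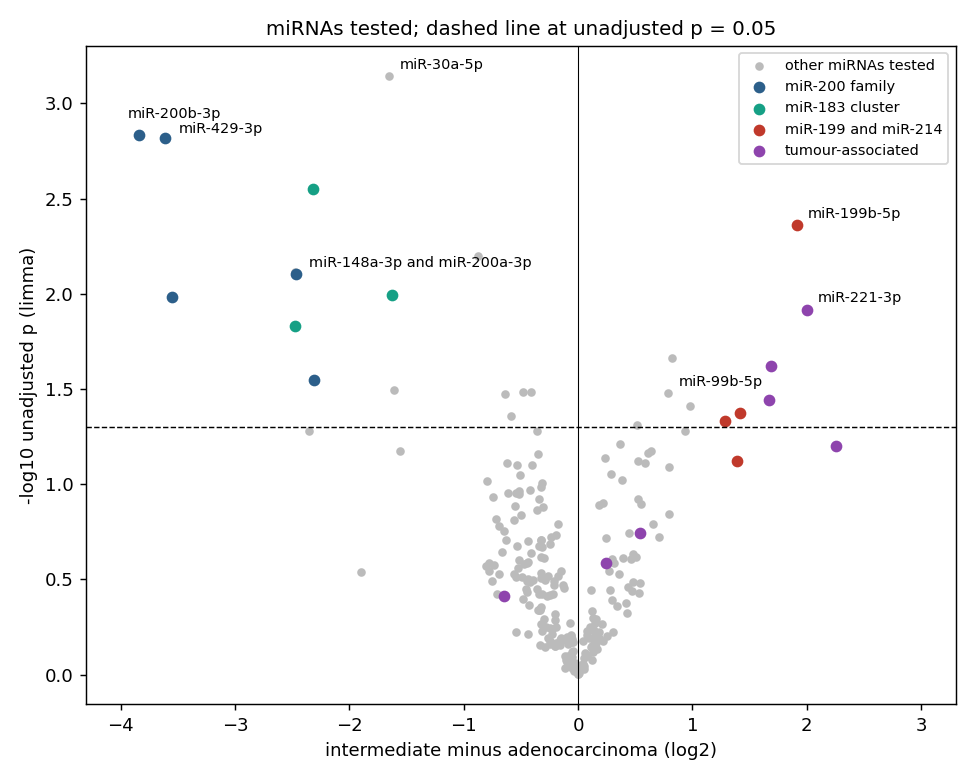
Each point is 1 of the 254 miRNAs tested, with the difference of the means of 3 intermediate tumours and 6 adenocarcinomas (log2) on the horizontal axis and -log10 of the unadjusted limma p on the vertical axis. The 8 members of the miR-200 family and the miR-183 cluster lie on the left, from -3.84 to -1.62. Above the dashed line lie 26 points, none of which passed adjustment.

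miR-200b-3p had the largest negative difference. Its levels were 3.66, 4.75 and 3.61 in intermediate tumours 1, 2 and 3, and 6.64, 8.51, 9.03, 4.02, 9.74 and 9.17 in adenocarcinomas 1 to 6. Every adenocarcinoma but number 4 stood above every intermediate tumour, and number 4 lay inside the intermediate range. The difference was -3.84 (SE 0.97, 95 percent confidence interval -5.93 to -1.76), with an unadjusted p of 0.00146 and an adjusted p of 0.129 in limma. Intermediates 1 and 3 were at or close to the floor, so the size is set in part by the floor. It was -4.74 with a floor 4 times lower, -3.12 with a floor 2 times higher and -2.32 after normexp background correction. Without adenocarcinoma 4 it was -4.61 (SE 0.60, adjusted p 0.000282 in limma). That p-value rests in part on leaving out the lowest adenocarcinoma.

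miR-429-3p, its neighbour on chromosome 4, was at the floor in intermediates 1 and 3 and at 4.23 in intermediate 2. In adenocarcinomas 1 to 6 it was at 6.44, 8.48, 8.78, 3.61, 9.16 and 8.13. The groups were again apart except for adenocarcinoma 4, which was at the floor. The difference was -3.61 (SE 0.92, adjusted p 0.129 in limma), and -4.38 without that tumour. It was detected in 1 of 3 intermediate tumours, and the difference was -4.63 and -2.99 with the lower and the higher floor and -2.05 after normexp. For miR-200a-3p and miR-200c-3p, below, the same 2 intermediate tumours were at the floor, and their differences move in the same way. miR-200a-3p, the third member of this locus, was at the floor in intermediates 1 and 3 and at 4.18 in intermediate 2, against 4.86, 5.87, 7.33, 3.61, 8.43 and 7.52 in the adenocarcinomas. The 3 poorly differentiated tumours had the highest levels. The difference was -2.47 (SE 0.80, adjusted p 0.249 in limma).

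At the other locus, on chromosome 6, miR-200c-3p was at the floor in intermediates 1 and 3 and at 4.42 in intermediate 2. Adenocarcinomas 1 to 6 had 7.10, 4.61, 9.84, 3.77, 9.64 and 9.62. Here adenocarcinoma 2, which had high miR-200b, was only just above intermediate 2. The difference was -3.55 (SE 1.20, adjusted p 0.263 in limma). miR-141-3p was not well above background in any intermediate tumour and was detected in 4 of 6 adenocarcinomas. It was about 4.56-fold lower in intermediate tumours (the fitted difference had an adjusted p of 0.427 in limma). Its level was at the floor in adenocarcinomas 2 and 4, at 4.71 in number 1, and at 7.41, 8.62 and 7.55 in the poorly differentiated numbers 3, 5 and 6. This fold sets the mean of the adenocarcinomas against the lowest signal read as above background. Adenocarcinomas 2 and 4 enter that mean at the floor, so the fold is an estimate and not a strict lower bound. The fitted difference was -2.31, and it was -1.72 with the floor 2 times higher and -1.36 after normexp.

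The miR-183 cluster, processed from one transcript and abundant in sensory and other epithelia, was also lowest in adenocarcinoma 4 and highest in adenocarcinoma 5. miR-183-5p was at 3.99, 4.19 and 3.68 in the intermediate tumours and at 6.15, 6.64, 6.73, 3.61, 7.81 and 6.65 in the adenocarcinomas. Adenocarcinoma 4 lay below all 3 intermediate tumours and the other 5 lay above them. The difference was -2.31 (SE 0.64, adjusted p 0.179 in limma), -1.10 after normexp, and -2.84 without adenocarcinoma 4 (SE 0.35, adjusted p 0.000217 in limma). The last p-value, too, rests in part on leaving out the lowest adenocarcinoma. miR-96-5p differed by -2.48 (SE 0.89) and miR-182-5p by -1.62 (SE 0.55), with adjusted p of 0.312 and 0.263 in limma. Adenocarcinoma 5 had the highest level of both, 9.22 for miR-96-5p and 7.16 for miR-182-5p.

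**Figure D2:**
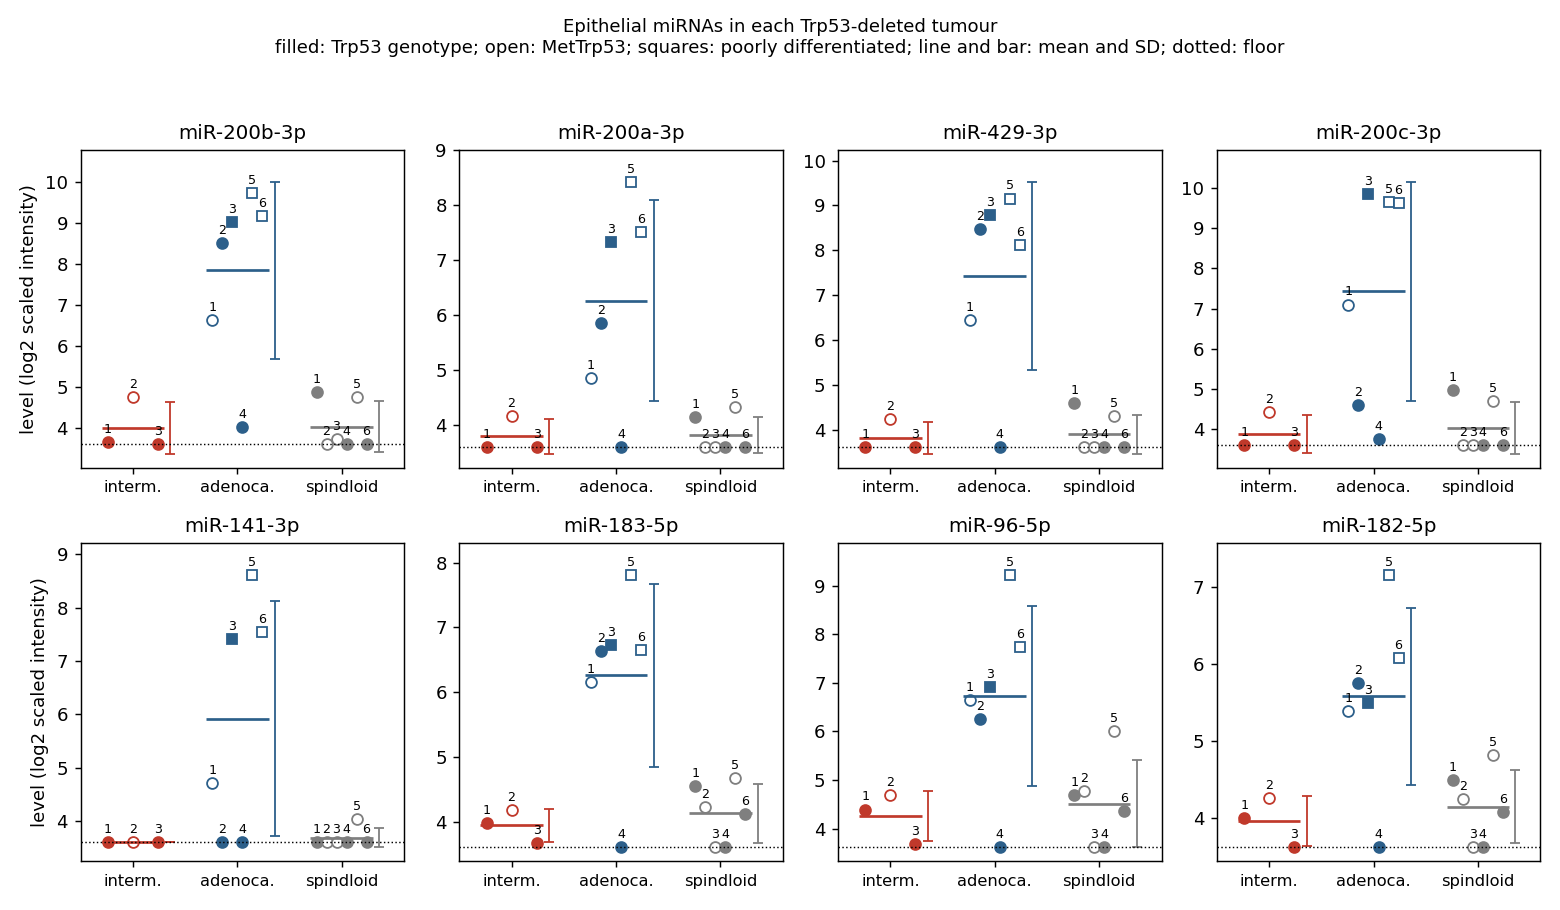
Levels (log2 scaled intensity) of the 5 miR-200 family members and the 3 miR-183 cluster members in 3 intermediate tumours, 6 adenocarcinomas and 6 spindloid tumours, with tumour numbers beside the points, and the mean and SD of each group. Adenocarcinoma 4 lies with the intermediate and spindloid tumours in all 8 panels, and adenocarcinoma 5, which is poorly differentiated (squares), has the highest level in 7 of them.

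Among other epithelial miRNAs, miR-205-5p, which is abundant in basal cells of the mammary gland, was at the floor in intermediates 1 and 3 and at 5.32 in intermediate 2. It was at the floor in adenocarcinomas 2 and 4 and at 6.22, 8.16, 8.41 and 9.21 in numbers 1, 3, 5 and 6. The groups overlapped, and the difference of -2.36 (SE 1.11) had an unadjusted p of 0.0523 and an adjusted p of 0.46 in limma. miR-203-3p was detected on 2 of the 9 arrays and miR-375-3p on none, and neither was tested.

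As lists, the miR-200 family had a median difference of -3.55 with 5 of 5 members below 0, and the miR-183 cluster -2.31 with 3 of 3 below 0. Over all miRNAs tested the median was -0.13, with 63.4 percent below 0. The mean level of the 5 miR-200 members was 3.62, 4.24 and 3.61 in the intermediate tumours and 5.95, 6.22, 8.48, 3.73, 9.12 and 8.40 in the adenocarcinomas. For scale, miR-200b-3p was at 7.16 and 7.20 in the 2 pools of normal mammary gland, between adenocarcinoma 1 and adenocarcinoma 2. It was at 8.50 ± 2.23 (SD, n = 7) in tumours with the Met transgene alone. These were of mixed pathology and include a spindloid tumour, and the lowest was at the floor of 3.61. The normal pools did not stand with the adenocarcinomas for the miR-183 cluster. There miR-183-5p was at 3.94 and 4.55, miR-96-5p at 4.70 and 5.54 and miR-182-5p at 3.91 and 4.92, below every adenocarcinoma but number 4. Fewer epithelial cells and less of the miR-200 and miR-183 cluster members per cell cannot be told apart in bulk tissue.

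Of the 10 miRNAs with the smallest p on the lower side, 7 were within or below the intermediate range in adenocarcinoma 4. These 7 were the miR-200 and miR-183 cluster members. Both arms of miR-30a stood with the other adenocarcinomas. miR-148a-3p, at 6.19, was only just above intermediate 2 at 6.17 and below adenocarcinomas 1, 3, 5 and 6. On the higher side, 2 of 10 were within the intermediate range there, miR-221-3p and miR-222-3p, as they were in adenocarcinoma 1. In adenocarcinoma 4, miR-31-3p (6.09), miR-350-3p (6.26) and miR-511-3p (4.91) were only just below the lowest intermediate levels of 6.15, 6.32 and 4.94. The remaining ones lay further below. The skeletal muscle miRNA miR-133b-3p stood at 9.19 there, against the floor in adenocarcinomas 1, 2, 3 and 5. Adenocarcinoma 6, with miR-133b-3p at 9.91, had a miR-200 family mean of 8.40. Of the 5 muscle miRNAs listed, miR-1a-3p, miR-133a-3p and miR-206-3p were each detected on 2 of the 9 arrays, miR-133b-3p on 3 and miR-499-5p on none. The part of muscle tissue in the low epithelial levels of adenocarcinoma 4 was not tested. Its title number is that of spindloid 6, with which it correlated at 0.922.

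The miR-30a hairpin gave the smallest p of all miRNAs tested. miR-30a-5p was at 5.73, 6.36 and 6.18 in the intermediate tumours. It was at 7.21, 6.98, 8.44, 7.33, 8.13 and 8.37 in adenocarcinomas 1 to 6. The groups did not overlap, and here adenocarcinoma 4 stood with the other adenocarcinomas. The difference was -1.66 (SE 0.38, 95 percent confidence interval -2.48 to -0.83), 3.15-fold lower, with an unadjusted p of 0.000717 and an adjusted p of 0.129 in limma. Both normal pools were higher still, at 8.48 and 8.69.

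The other arm of the hairpin, miR-30a-3p, was not well above background in any intermediate tumour and was detected in all 6 adenocarcinomas, at 3.96 to 5.44. Set against the lowest signal read as above background, it was about 1.69-fold lower in intermediate tumours (the fitted difference had an adjusted p of 0.249 in limma). This is not a strict lower bound. Its fitted difference of -0.87 went from -1.90 to -0.21 between the lower and the higher floor, and was -0.45 after normexp. Groups that do not overlap were found for 9 of 254 miRNAs (3.54 percent), 7 of them lower in intermediate tumours (2.76 percent). Besides both arms of miR-30a, the 7 were let-7g-5p, let-7b-5p, miR-30e-3p, miR-106b-5p and miR-30d-5p, whose differences lay between -0.64 and -0.31. Of the relatives with the miR-30a-5p seed, miR-30c-5p differed by -0.80 (SE 0.45) and miR-30e-5p by -0.52 (SE 0.43). All 5 members of the miR-30 family had values below 0, as had 63.4 percent of all miRNAs tested, with a median of -0.52. Of the 5, 1 was under the unadjusted p of 0.05 on the lower side, against 6.3 percent of all.

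miR-148a-3p, which is abundant in milk and in secretory mammary cells, was at 4.70, 6.17 and 4.05 in the intermediate tumours. It was at 7.35, 5.40, 8.10, 6.19, 9.73 and 7.93 in the adenocarcinomas. The groups overlapped only through adenocarcinoma 2, which lay below intermediate 2. The difference was -2.48 (SE 0.80, adjusted p 0.249 in limma). The 2 miRNAs with the same seed had other values, 0.65 (SE 0.44) for miR-152-3p and -0.03 (SE 0.17) for miR-148b-3p.

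On the higher side, miR-199b-5p had the smallest p. Its level was 8.93, 8.51 and 9.55 in intermediates 1 to 3, and 7.35, 6.55, 8.06, 8.09, 6.06 and 6.40 in adenocarcinomas 1 to 6. The groups did not overlap, which was so for 2 of 254 miRNAs on this side (0.787 percent), the other being miR-99b-5p. The difference was 1.91 (SE 0.56, 95 percent confidence interval 0.70 to 3.12), 3.77-fold higher, with an unadjusted p of 0.00437 and an adjusted p of 0.222 in limma. The normal pools were at 7.91, inside the adenocarcinoma range, and at 8.98, inside the intermediate range.

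miR-199a-3p was the most abundant of this group, at 9.54, 9.78 and 11.14 in the intermediate tumours and at 9.04, 8.65, 10.17, 9.09, 8.20 and 8.05 in the adenocarcinomas. Adenocarcinoma 3 lay above 2 of the intermediate tumours, and the other 5 adenocarcinomas lay below all 3. The differences were 1.29 (SE 0.59) for miR-199a-3p, 1.41 (SE 0.63) for miR-199a-5p and 1.39 (SE 0.72) for miR-214-3p, with adjusted p of 0.46, 0.46 and 0.481 in limma. All 4 tested members of this list were above 0, with a median of 1.40, against 36.6 percent of all miRNAs tested. miR-214-5p was detected on 1 of the 9 arrays and was not tested.

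**Figure D3:**
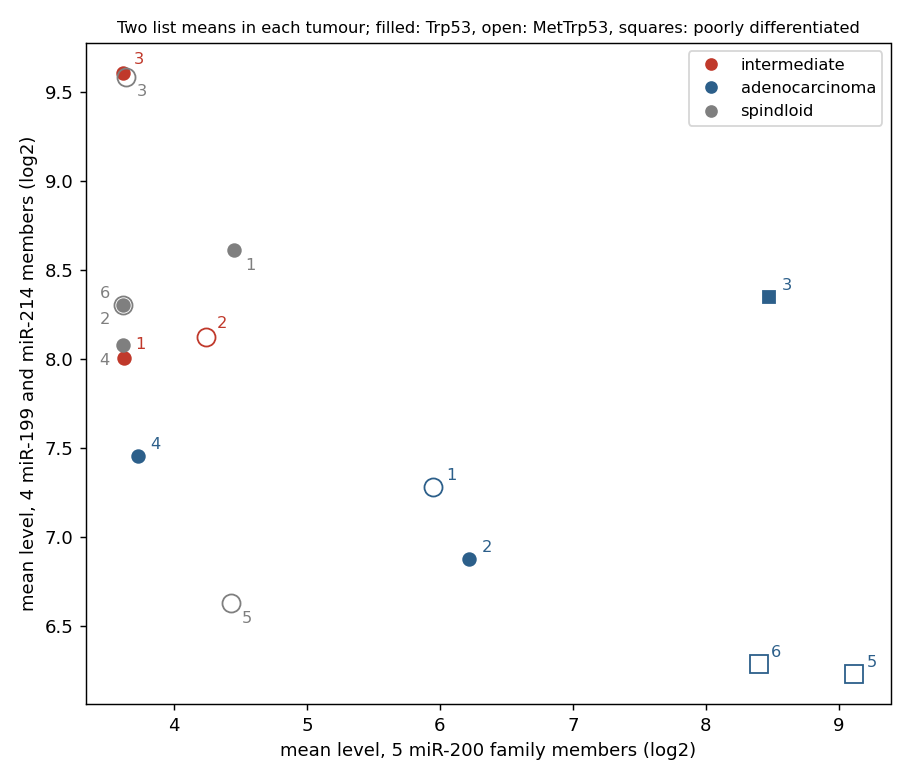
Mean level of the 5 miR-200 family members (horizontal) and of the 4 tested miR-199 and miR-214 members (vertical) in each of 15 tumours, log2 scaled intensity, with tumour numbers beside the points. The 3 intermediate tumours lie at 3.61 to 4.24 and 8.01 to 9.60, the adenocarcinomas spread from 3.73 to 9.12 on the horizontal axis, and adenocarcinoma 3 is high on both axes, at 8.48 and 8.35.

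The levels of the miR-199 and miR-214 group and of the miR-200 family were not simple mirror images. Adenocarcinoma 3 had a miR-200 mean of 8.48 together with a miR-199 and miR-214 mean of 8.35, inside the intermediate range of 8.01 to 9.60. Adenocarcinoma 4 had means of 3.73 and 7.45, the second of them below the intermediate range. In smooth muscle and myoepithelial cells, miR-143 and miR-145 are abundant. miR-143-3p had a value of -0.56 (SE 0.35, adjusted p 0.542 in limma), with levels of 4.16 to 5.21 in intermediate tumours and 4.45 to 6.12 in adenocarcinomas. miR-145-5p was detected on 2 of the 9 arrays, and miR-143-5p and miR-145-3p on none.

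miR-221-3p and miR-222-3p are encoded together, share a seed and are known to repress the cell-cycle inhibitor p27 and, in breast cancer cells, the oestrogen receptor. miR-221-3p was at 8.43, 7.40 and 9.39 in intermediates 1 to 3 and at 8.25, 6.22, 5.70, 7.77, 5.35 and 5.15 in adenocarcinomas 1 to 6. Adenocarcinomas 1 and 4 lay inside the intermediate range and the other 4 lay below it. The difference was 2.00 (SE 0.69, adjusted p 0.28 in limma). miR-222-3p had the same 2 adenocarcinomas inside the intermediate range, at 7.36 and 6.32, and a difference of 1.69 (SE 0.67, adjusted p 0.427 in limma).

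miR-31-3p, from a locus often lost or altered in tumours, was at 7.11, 6.15 and 6.36 in the intermediate tumours. It was at 7.10, 3.61, 3.64, 6.09, 4.73 and 4.08 in the adenocarcinomas. Adenocarcinoma 1 again stood with the intermediate tumours. The difference was 1.67 (SE 0.72, adjusted p 0.436 in limma). The main arm, miR-31-5p, had a difference of 2.25 (SE 1.11) with an unadjusted p of 0.063, and ranged in the adenocarcinomas from the floor in number 2 to 10.77 in number 1. Of the 7 miRNAs in the list of tumour-associated miRNAs, 6 were above 0, with a median of 1.67, and miR-210-3p, induced by low oxygen, was at -0.64 (SE 0.72).

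**Figure D4:**
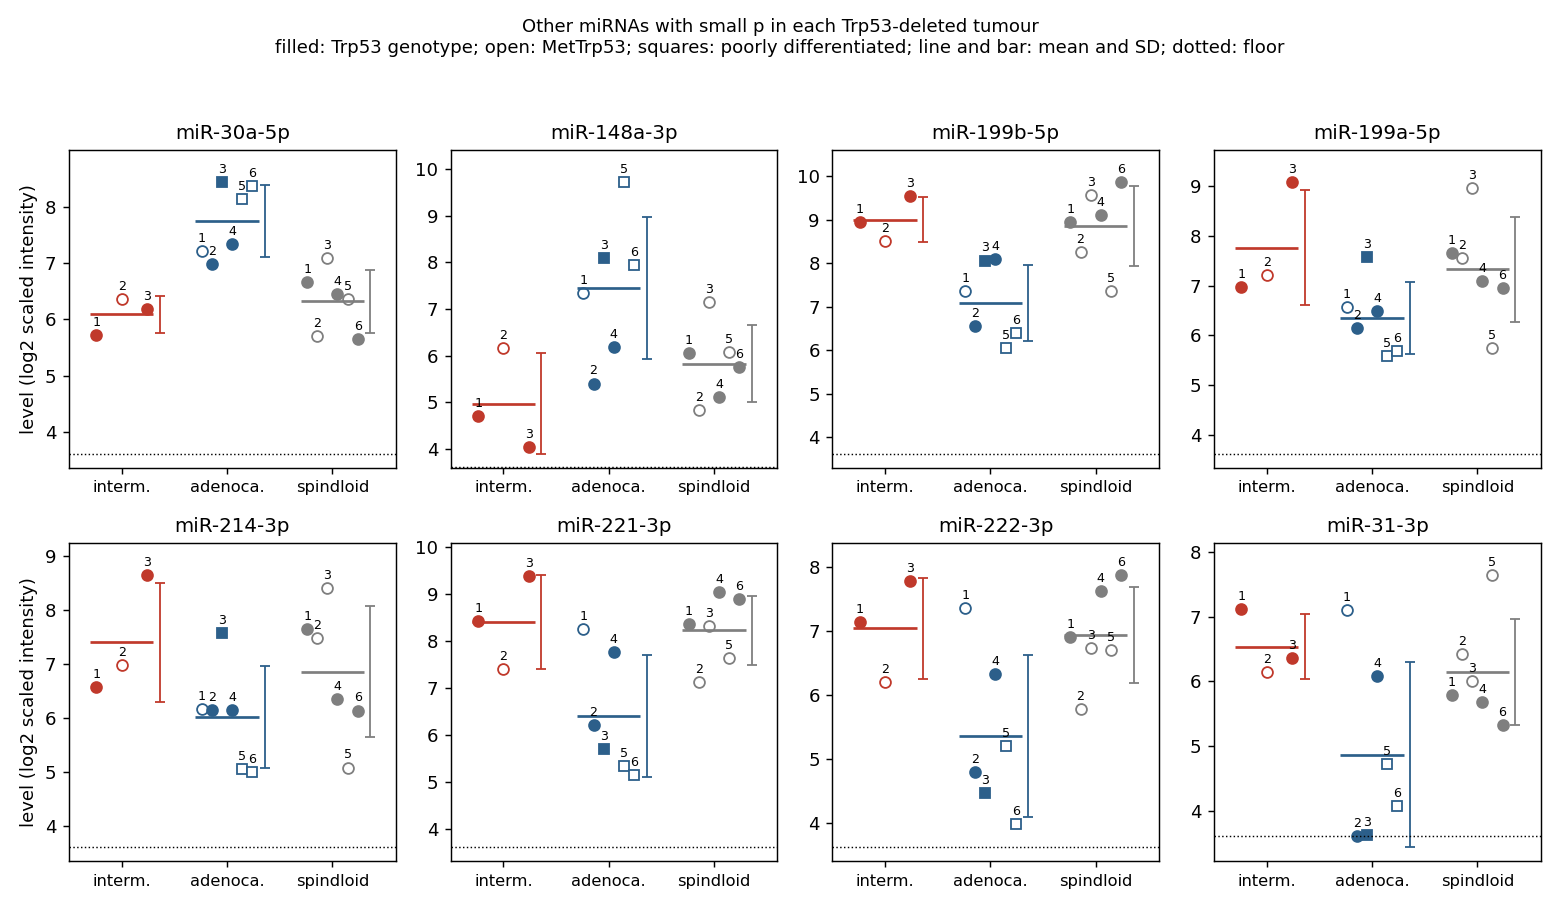
Levels (log2 scaled intensity) of 8 further miRNAs in the 3 intermediate, 6 adenocarcinoma and 6 spindloid tumours, drawn as for the epithelial miRNAs. The groups of intermediate tumours and adenocarcinomas do not overlap for miR-30a-5p and miR-199b-5p, and adenocarcinoma 1 lies with the intermediate tumours for miR-221-3p, miR-222-3p and miR-31-3p.

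The remaining miRNAs with small p on the higher side had smaller values. miR-99b-5p, at 7.30 to 8.41 in intermediate tumours and 6.30 to 7.29 in adenocarcinomas, differed by 0.79 (SE 0.33). miR-350-3p differed by 0.82 (SE 0.32), miR-511-3p by 0.98 (SE 0.43) and miR-674-3p by 0.52 (SE 0.24), all with adjusted p of 0.426 or more in limma. miR-511-3p lies in the span of Mrc1, the macrophage mannose receptor gene, and it was detected in 3 of 3 intermediate tumours and 3 of 6 adenocarcinomas. After normexp its difference was 0.21.

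Of the other lists, muscle had 1 tested member, miR-133b-3p, with a difference of -1.895 (SE 1.725, adjusted p 0.663 in limma). The remaining lists had medians closer to 0. The let-7 family had a median of -0.16 with 2 of 9 members lower at an unadjusted p under 0.05, against 6.3 percent of all miRNAs tested, and the growth-promoting miR-17 cluster and its paralogs had 0.12 over 10 members. Leukocyte miRNAs had a median of 0.10 over 6 members, from -1.56 for miR-146b-5p to 0.93 for miR-223-3p, a myeloid miRNA. Their mean level was 5.91 to 6.25 in intermediate tumours and 5.24 to 6.87 in adenocarcinomas. miR-126-3p of endothelial cells differed by 0.46 (SE 0.38). Adipose miRNAs had a median of -0.04 over 3 members, and 1 of them, miR-193b-3p, differed by -1.61 (SE 0.68, adjusted p 0.427 in limma). Their mean level was 5.97 to 6.59 in intermediate tumours and 6.32 to 7.41 in adenocarcinomas, and the part of adipose and immune cells in the results above was not tested.

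The count of miRNAs past the threshold depended on which adenocarcinomas were taken. Against the 3 poorly differentiated tumours alone, 25 miRNAs (9.84 percent) had an adjusted p under 0.05 in limma, 17 lower and 8 higher in intermediate tumours. The 5 miR-200 members, the 3 miR-183 cluster members, miR-205-5p, both arms of miR-30a and miR-148a-3p fell below these tumours. miR-200c-3p differed by -5.82 (SE 0.41, adjusted p 2.22e-06) and miR-141-3p had an adjusted p of 2.22e-06 as well. Levels at the floor have no spread, so the p of miR-141-3p rests on the floor. In intermediates 1 and 3, miR-200a-3p, miR-200c-3p, miR-429-3p and miR-205-5p were also at the floor, as was miR-30a-3p in every intermediate tumour. Their p-values rest on the floor in part. miR-146b-5p, induced by inflammatory signals, was also among the 17 (-2.96, SE 0.36, adjusted p 0.00016), as were miR-9-5p and miR-9-3p. Both arms of miR-9 were at the floor in every intermediate and spindloid tumour. The 8 higher ones were miR-221-3p (3.01, SE 0.55, adjusted p 0.0035), miR-222-3p, both arms of miR-31, miR-149-5p, miR-223-3p, miR-193-3p and miR-511-3p.

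Against the 3 other adenocarcinomas alone, none of the 254 passed in limma (smallest adjusted p 0.213) and 24 had an unadjusted p under 0.05. The difference was then -2.38 (SE 0.91) for miR-200b-3p and -1.28 (SE 0.75) for miR-200c-3p. It was -0.37 (SE 0.26) for miR-141-3p and -0.30 (SE 0.72) for miR-205-5p. The median of the miR-200 family was -1.28. miR-199b-5p had 2.16 (SE 0.67) against the poorly differentiated tumours and 1.67 (SE 0.62) against the others.

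Other choices of tumours gave counts between these. Without adenocarcinomas 2, 3 and 4, the tumours with a shared title number, 14 miRNAs (5.51 percent) passed in limma, 13 lower and 1, miR-199b-5p, higher. This leaves only MetTrp53 adenocarcinomas, against intermediate tumours of both genotypes. In that run pathology and the Met transgene cannot be fully told apart. Among tumours of stated parity, which leaves out adenocarcinomas 2 and 4, 13 (5.12 percent) passed, all lower, and 15 (5.91 percent) with parity as a covariate, which added miR-221-3p and miR-222-3p on the higher side.

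The difference between the 2 kinds of adenocarcinoma was tested directly in the fit of 15 tumours. Poorly differentiated tumours minus the others gave 10 of 254 miRNAs (3.94 percent) with an adjusted p under 0.05 in limma, and 44 (17.3 percent) with an unadjusted p under 0.05. miR-141-3p (3.88, SE 0.33, adjusted p 6.28e-06), miR-200c-3p (4.54, SE 0.67, adjusted p 0.00119), miR-200a-3p (2.98, SE 0.47, adjusted p 0.0016) and miR-205-5p (4.11, SE 0.67, adjusted p 0.00198) were higher in the poorly differentiated tumours. miR-30a-3p was higher by 0.93 (SE 0.19, adjusted p 0.0103 in limma). The spread in this fit comes from all 15 tumours. miR-141-3p and miR-30a-3p were at the floor in every intermediate tumour, and miR-200c-3p, miR-200a-3p and miR-205-5p in intermediates 1 and 3. Levels at the floor have no spread, so these SEs and p-values rest in part on the floor. miR-200b-3p (2.92, SE 0.83, adjusted p 0.0729), miR-221-3p (-2.01, SE 0.61, adjusted p 0.0839) and miR-199b-5p (-0.49, SE 0.66, adjusted p 0.78) did not pass. Adenocarcinoma 3 and adenocarcinoma 2, on opposite sides of this split, share a title number. The scaling percentile was also higher in every poorly differentiated tumour than in the others. Slides differed too: the poorly differentiated tumours were on slides 2, 3 and 4 and the others on slides 1 and 2. Genotype was not balanced, with adenocarcinomas 5 and 6 MetTrp53 and number 3 Trp53, against number 1 MetTrp53 and numbers 2 and 4 Trp53. The part of array brightness, slide and genotype in this split was not tested.

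**Figure D5:**
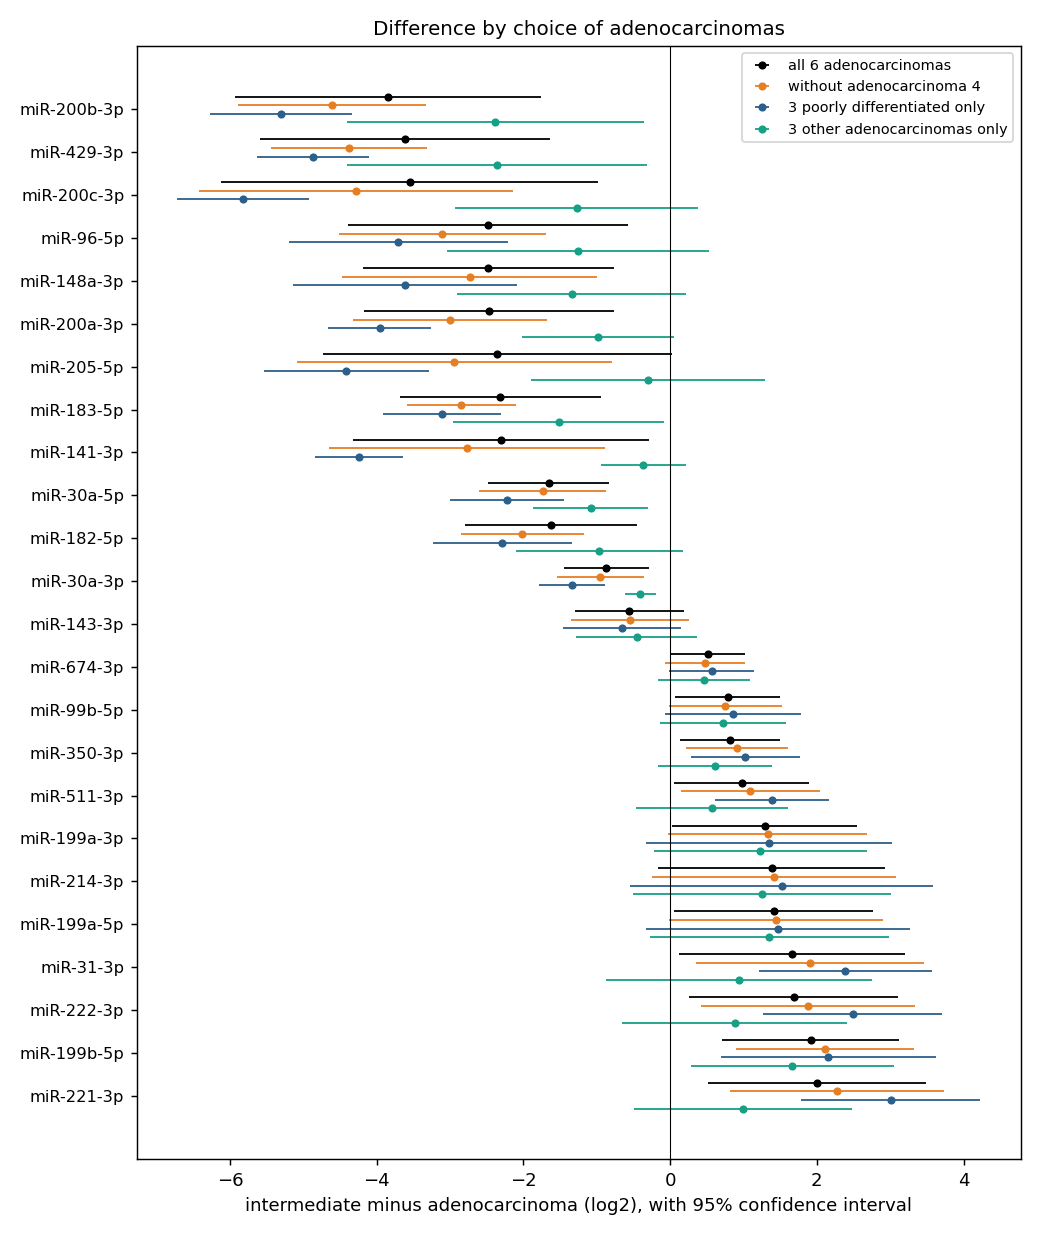
Difference of intermediate tumours minus adenocarcinomas (log2) with its 95 percent confidence interval for the 24 named miRNAs, against all 6 adenocarcinomas, the 5 without number 4, the 3 poorly differentiated and the 3 others. miR-200c-3p moves from -5.82 against the poorly differentiated tumours to -1.28 against the others, and miR-199b-5p only from 2.16 to 1.67.

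The intermediate tumours were close to the spindloid tumours in the named miRNAs. Both comparisons share the 3 intermediate tumours, so the values are given side by side. miR-200b-3p differed by -3.84 from adenocarcinomas and by -0.03 (SE 0.97, 95 percent confidence interval -2.12 to 2.06) from spindloid tumours. miR-30a-5p differed by -1.66 and by -0.23 (SE 0.38), and miR-199b-5p by 1.91 and by 0.15 (SE 0.56). miR-148a-3p had the largest value against spindloid tumours of the 10 named on the lower side, -0.86 (SE 0.80, adjusted p 1 in limma). Of 254 miRNAs, 0 (0 percent) passed between intermediate and spindloid tumours in limma, and 7 (2.76 percent) had an unadjusted p under 0.05. The intervals leave room for differences of several-fold, so these values do not show that the 2 kinds of tumour are alike.

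Among the intermediate tumours, intermediate 2, the MetTrp53 tumour, had the highest level of all 5 miR-200 members except miR-141-3p, for which all 3 were at the floor. It also had the highest miR-183-5p, miR-205-5p and miR-148a-3p and the lowest miR-199b-5p, miR-221-3p and miR-222-3p. Intermediate 3 had the highest level of miR-199a, miR-199b-5p, miR-214-3p, miR-221-3p and miR-222-3p. With 3 tumours these orders have no test.

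Within each genotype the differences had the same sign as over both for all 20 miRNAs named by p. The 20 were picked by p in these same tumours, so this agreement follows largely from the choice. miR-200b-3p differed by -3.77 in MetTrp53 tumours (1 intermediate against 3 adenocarcinomas) and by -3.55 in Trp53 tumours (2 against 3). miR-199b-5p differed by 1.91 and 1.68, and miR-221-3p by 1.15 and 2.35. A test of whether the difference depended on genotype called 0 of 254 miRNAs in limma, with 14 at an unadjusted p under 0.05 and a smallest adjusted p of 0.405. It had 5 residual degrees of freedom and rests on 1 MetTrp53 intermediate tumour, which is assumed to vary like the tumours of the other groups. It therefore does not show that the genotypes are alike.

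Slides were not balanced between the groups. Intermediate 1 was on slide 3 with adenocarcinoma 5, intermediates 2 and 3 were on slide 4 with adenocarcinoma 6, and the other 4 adenocarcinomas were on slides 1 and 2. All 20 miRNAs named by p kept their direction within slides 3 and 4, whose adenocarcinomas were both poorly differentiated MetTrp53 tumours. These arrays were among those used to pick the 20, so this too follows largely from the choice. miR-200b-3p differed by -6.07 within slide 3 and by -4.99 within slide 4, and miR-199b-5p by 2.88 and 2.63. With slide as a block the differences were -4.59 (SE 1.24, adjusted p 0.252 in limma) and 2.20 (SE 0.75, adjusted p 0.252 in limma).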

How the data were processed

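Column-purified total RNA, labelled with Cy3, was measured on Agilent one-colour miRNA arrays (per the labels' protocols). Each deposited scanner file gives the intensity of 49324 spots. Per the file headers these come from Agilent Feature Extraction 10.7.3.1, which subtracts background and does not normalise across arrays. A second deposited table holds the authors' log2 values, for which the submitters' processing notes name RMA with no role or version, and which served as an alternative. How that table was centred is not known.

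The processed signal of each of 25 arrays was divided by its 75th percentile over the 220 probes well above background on all arrays and set back to intensity units by the median percentile, 577.5. Values under a floor of 0.0212 of the percentile were raised to it, and log2 was taken. Outlier spots were left out, and spots, then probes, of a miRNA were averaged. Of 1122 mouse miRNAs with 40 spots each, 254 were detected on at least 3 of the 9 arrays and tested. Of these, 6 were detected only in adenocarcinomas and none only in intermediate tumours, so the filter leans towards lower values in intermediate tumours. A miRNA counts as detected where over 0.5 of a probe's spots were well above background. The number of arrays limits the precision.

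The model of limma 3.58.1 (R 4.3.3, lmFit then eBayes) was fitted to 15 tumours (3 intermediate, 6 adenocarcinoma, 6 spindloid) with no covariate. The threshold was a Benjamini-Hochberg adjusted p under 0.05 over all 254, and the fit was tested on simulated data. The tumour with no stated pathology was left out. Named are the 10 miRNAs with the smallest p in each direction, tested members of the miR-200, miR-183, other epithelial, miR-199 and miR-214, and smooth muscle and myoepithelial lists, and any other list member past the threshold. Other miRNAs named were chosen after their values were seen. The tumours compared, the lists and the rule were chosen with earlier results of these data known, so lists have counts and medians and no test. For normexp the median signal replaced the mean signal, which the files used here do not hold. Alternatives changed background, scaling, floor, filter, batch, covariates, samples and replicates. Testing poorly differentiated against other adenocarcinomas, leaving out adenocarcinomas 2, 3 and 4, and dropping tumours of unstated parity were chosen after seeing the data. Leaving out each tumour in turn was planned, but the run without adenocarcinoma 4 was singled out after its levels were seen.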

Additional observations from a re-analysis of the deposited data

Results flagged for a closer look

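Among 48 checks of a named miRNA within a group of 6 tumours, 2 found a tumour that stood far from the rest of its group, where chance gives about 1 in 20. Both were in spindloid tumours and close to the floor. miR-30a-3p was at 3.76 in spindloid 3 and at the floor of 3.61 in the other 5, and miR-141-3p was at 4.05 in spindloid 5 and at the floor in the other 5. Neither was counted as a difference between intermediate tumours and adenocarcinomas.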

How the results depend on the processing

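The count of miRNAs past the threshold, 0 with all 6 adenocarcinomas, was 25 with only the poorly differentiated adenocarcinomas, 15 with parity as a covariate (which drops adenocarcinomas 2 and 4) and 13 in the same tumours without that covariate. It was 14 without adenocarcinomas 2, 3 and 4, which leaves only MetTrp53 adenocarcinomas. Leaving out 1 of the 9 tumours at a time gave 0 to 8, with 8 only without adenocarcinoma 4. All 8 of these were among the 25 and among the 15, and all 15 were among the 25. Each of these choices leaves out adenocarcinoma 4, so the overlap is not separate support. The count was 0 under normexp (smallest adjusted p 0.051), both other scalings, the authors' table, the brightest probe, other floors and filters, slide or scan date as a block, the trended robust variance, genotype as a covariate, averaging adenocarcinomas 2 and 3, only the 9 tumours and all 25 arrays. No named miRNA changed direction under any alternative run, but sizes moved. Normexp changed 20 of the 24 log2 differences by over 1.5 times, and each changed floor 2 of 24. miR-511-3p went from 0.98 to 0.21 and miR-183-5p from -2.31 to -1.10 with normexp. miR-30a-3p went from -0.87 to -1.90 with the lower and -0.21 with the higher floor. The median of all miRNAs tested moved from -0.13 to -0.01 with scaling over all probes, 0.045 with quantile normalisation and 0.06 in the authors' table. No paired analysis was possible because replicate numbers follow the order of deposit and pair nothing. Levels at the floor limit how far the fold changes of the dimmest miRNAs can be read.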

Other observations

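A further Trp53-deleted tumour has no stated pathology and entered no comparison. Its level of miR-200b-3p was 3.85, of miR-200c-3p 3.77 and of miR-141-3p the floor of 3.61. miR-30a-5p was at 5.90, miR-199b-5p at 8.90, miR-221-3p at 8.04 and miR-31-3p at 6.60.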
